A study of Mus musculus with 24 samples.

Results

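Tumour-resident MHCIIhi macrophages and Ly6Chi tumour monocytes, both sorted from colon tumours, were compared across all genes. The comparison used 6 of the 24 RNA-seq libraries of the series, 3 for each population, chosen by their labelled cell type and tissue. Of the 17301 genes deposited, 12878 had a mean level of at least 1 RPKM (reads scaled to transcript length and to library size) in at least 1 of the 8 groups of libraries and were tested. The tumours came from Apc Min/+ mice (strain label APC/Min), which carry a germline mutation of the tumour suppressor Apc in every cell. These mice were given 1.5% dextran sodium sulphate (DSS), which injures the colon epithelium, in the drinking water at 6 to 8 weeks of age and were killed at 3 to 4 months. Each library held cells pooled from 13 to 15 mice, so a library stands for a pool and not for an animal. Macrophages were sorted as F4/80hi CD11b+ MHCIIhi cells and monocytes as F4/80int CD11b+ Ly6Chi MHCII- cells, after CD11chi MHCIIhi dendritic cells had been gated out. Macrophage pools were numbered I, V and VII and monocyte pools I, II and V, and values below are given in that order. Macrophages and monocytes of the colon lamina propria (LP), 3 libraries of each, are used only to show where the tumour comparison differed; they are labelled as coming from healthy lamina propria of C57/BL mice. The study's methods describe DSS, at another dose, for control mice as well, and whether these LP mice had received it is not settled here.

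Ly6Chi monocytes enter the gut wall from the blood and can mature there, losing Ly6C and gaining MHC class II and F4/80 as they become macrophages. Monocytes are known for adhesion and homing receptors, granule-type proteins and rapid inflammatory mediators. Mature gut macrophages are known for engulfing dead cells, degrading the cargo in lysosomes and presenting peptides on MHC class II.

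The 6 libraries held 21542564 to 35940190 reads on the genes. Spearman's correlation across genes was 0.938 to 0.962 among the macrophage libraries and 0.956 to 0.967 among the monocyte libraries, and 0.785 to 0.829 between the populations, so no library sat with the other population. The lists of cell type markers went with both labels. The summed level of 15 monocyte markers was 364 to 517 RPKM in macrophages and 9549 to 11100 RPKM in monocytes, and that of 20 macrophage markers was 16350 to 29440 RPKM in macrophages and 1452 to 1621 RPKM in monocytes. Markers of other cells were below those of the labelled population in every library but not level between the groups. Epithelial markers summed to 8.07 to 80.6 RPKM in macrophages and to 142 to 373 RPKM in monocytes, and neutrophil markers to 118 to 245 RPKM and 611 to 661 RPKM. B and plasma cell markers went the other way, at 67.1 to 121 RPKM in macrophages and 18.2 to 60.9 RPKM in monocytes. T and NK cell markers summed to 15.3 to 23.5 RPKM and 29.0 to 36.5 RPKM, and dendritic cell markers to 192 to 232 RPKM and 139 to 163 RPKM. Most reads of the dendritic cell list fell on Sirpa, with 23316, 47039 and 31791 in macrophages and 18883, 19298 and 16779 in monocytes. Sirpa was the only one of 7 tested members called higher in macrophages, and 2 were called lower (median -0.49). Markers of eosinophils, mast cells, fibroblasts, endothelium and red cells summed to at most 8.01 RPKM in any of the 6 libraries. In sorted pools, fewer cells of a type and less RNA per cell cannot be told apart.

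**Figure D1:**
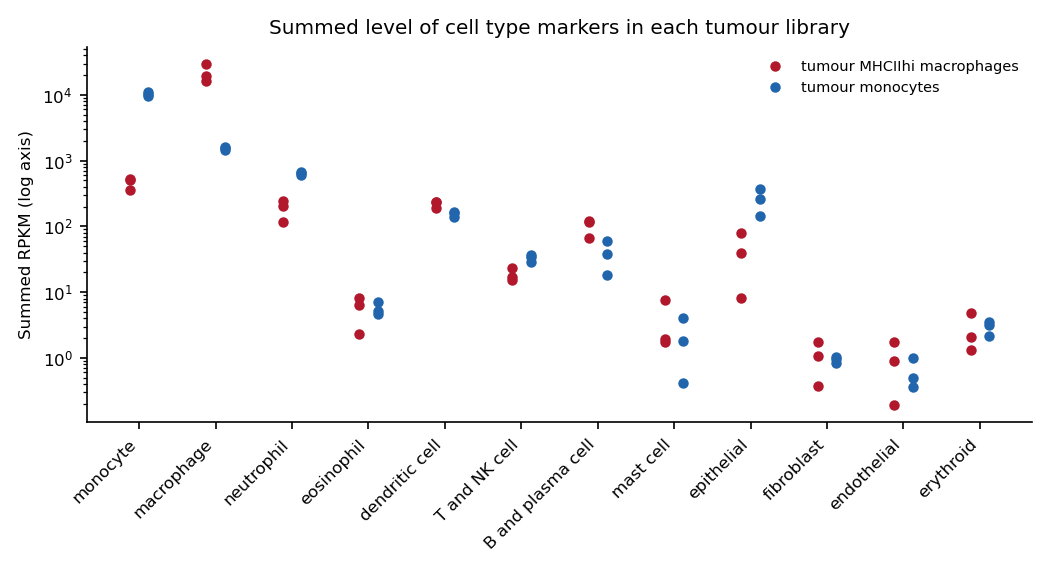
Summed RPKM (log axis) of the markers of each cell type in the 3 macrophage libraries (red) and the 3 monocyte libraries (blue) from tumours, each point being a library. Monocyte and macrophage markers separate the populations completely, and epithelial and neutrophil markers are also higher in all 3 monocyte libraries.

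Tumour macrophages and tumour monocytes differed in a large share of the genes tested. At an adjusted p under 0.05 (limma on log2 RPKM, Benjamini-Hochberg), 1748 genes were higher in macrophages, 13.6% of the 12878, and 2383 were lower, 18.5%. The 3 libraries of each population did not overlap for 1703 of the genes called higher and 2288 of those called lower. Large changes were balanced, with 385 genes higher and 357 lower by more than 4 on the log2 scale. Protein-coding genes made up 92.4% of the rises and 91.4% of the falls. The highest group mean was under 30 reads for 55 of the rises and 97 of the falls, and calls on so few reads are less reliable. The balance between rises and falls depended on the scaling. Rises were 42.3% of the calls with the deposited scaling and 59.9% when library sizes were the summed reads, which moved the median of all genes from 0 to 0.27.

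**Figure D2:**
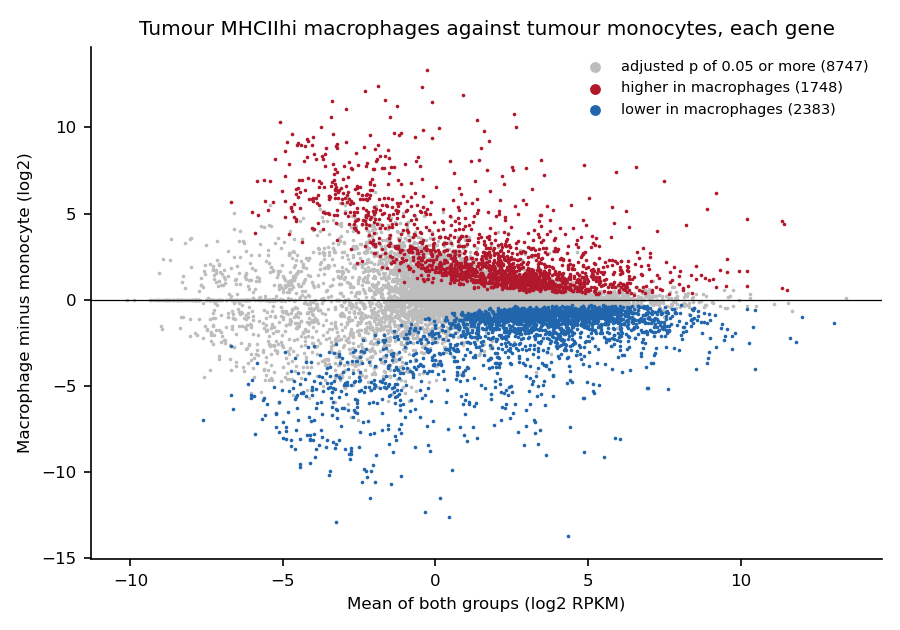
Each point is a gene tested, with the mean of both groups in log2 RPKM on the horizontal axis and the macrophage minus monocyte difference on the log2 scale on the vertical axis. The 1748 genes higher in macrophages (red) and the 2383 lower (blue) include changes of more than 10 on the log2 scale in both directions.

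The 12 largest rises, chosen among genes whose groups do not overlap, were genes at under 1 RPKM in every monocyte library. Tlr12, an endosomal Toll-like receptor, was at 96.3, 82.7 and 73.0 RPKM in macrophages and at 0, 0.0696 and 0 RPKM in monocytes. The log2 difference was 13.32 ± 1.61 (SE, adjusted p = 1.76e-06, limma). Every monocyte library was far below every macrophage library. Where monocytes had next to no reads, as here, the fitted log2 difference depends on the small prior count in the deposited values and is not a bound.

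Cd4, the T cell co-receptor that some gut macrophages also carry, was at 56.5, 45.8 and 56.9 RPKM in macrophages and at 0, 0 and 0.213 RPKM in monocytes. It was 12.35 ± 1.69 higher on the log2 scale (adjusted p = 8.58e-06, limma). The summed T and NK cell markers were lower in macrophages, but most reads of that list fell on Il7r. Il7r had 1371, 2863 and 1135 reads in macrophages and 2646, 2934 and 2639 in monocytes. Of the 6 tested members of that list 1 was called higher and 1 lower, and a part of T cells in Cd4 was not tested. Adamdec1, a metalloprotease-like gene of mature gut macrophages, was at 287, 246 and 117 RPKM against 0.196, 0.0912 and 0.386 RPKM, a log2 difference of 10.05 ± 0.72 (adjusted p = 1.66e-09, limma). Fcrls, an Fc receptor-like scavenger receptor of tissue macrophages, was at 196, 257 and 309 RPKM against 0.0895, 0.0341 and 0.93 RPKM. Mgl2, a C-type lectin that binds galactose-type sugars, was at 118, 114 and 63.2 RPKM against 0, 0.173 and 0.447 RPKM. Each was under 1 RPKM in all 3 monocyte pools.

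Ccl8, a chemokine, was at 47.1, 22.7 and 110 RPKM in macrophages and had no read in any monocyte library, which makes it at least 234-fold higher against a floor of 3 reads per library. The terminal complement component C6 was at 24.4, 13.3 and 16.7 RPKM against 0, 0.0373 and 0 RPKM. Cp, the ferroxidase ceruloplasmin, was at 11.1, 11.3 and 19.9 RPKM against 0, 0 and 0.0332 RPKM. The non-classical MHC gene H2-M2 varied most among the macrophage pools, at 288, 114 and 45.8 RPKM, against 0.0917, 0 and 0.0555 RPKM in monocytes. The remaining genes of the 12 largest rises were Plxdc2, Cadm1 and B3galnt1.

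The largest falls, also chosen among genes whose groups do not overlap, included secreted proteins of monocytes. Chil3, a secreted chitinase-like protein of myeloid cells, was at 1.21, 0.836 and 0 RPKM in macrophages and at 2212, 2146 and 2789 RPKM in monocytes. It fell by 13.71 ± 1.27 on the log2 scale (adjusted p = 5.51e-08, limma) and the groups were far apart. Slpi, a secreted inhibitor of leukocyte proteases, was at 3.35, 0.984 and 2.28 RPKM against 1578, 1059 and 802 RPKM, a log2 difference of -9.14 ± 0.49 (adjusted p = 3.67e-11, limma). Slpi is also an epithelial product, and the epithelial markers given above were higher in monocytes too; their part in this difference was not tested.

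Serpinb2, an intracellular inhibitor of plasminogen activators, was at 0, 0.369 and 0 RPKM in macrophages and at 106, 119 and 96.9 RPKM in monocytes. Hp, the haemoglobin scavenger haptoglobin, was at 2.72, 2.03 and 0.468 RPKM against 736, 611 and 560 RPKM. These macrophage pools were close to empty for genes that all 3 monocyte pools expressed.

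Il12a, the p35 chain of interleukin 12, was at 0, 0.0849 and 0 RPKM in macrophages and at 19.5, 17.3 and 11.8 RPKM in monocytes. Has1, a hyaluronan synthase, had no read in any macrophage library and was at 13.3, 5.64 and 24 RPKM in monocytes, at least 278-fold lower in macrophages against the same floor. Vcan, the matrix proteoglycan versican, was at 0.00566, 0.11 and 0.12 RPKM against 25.7, 13.1 and 19.3 RPKM. Plac8, Plcb1, Fam20a and Ly6c2 were also among the largest falls.

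**Figure D3:**
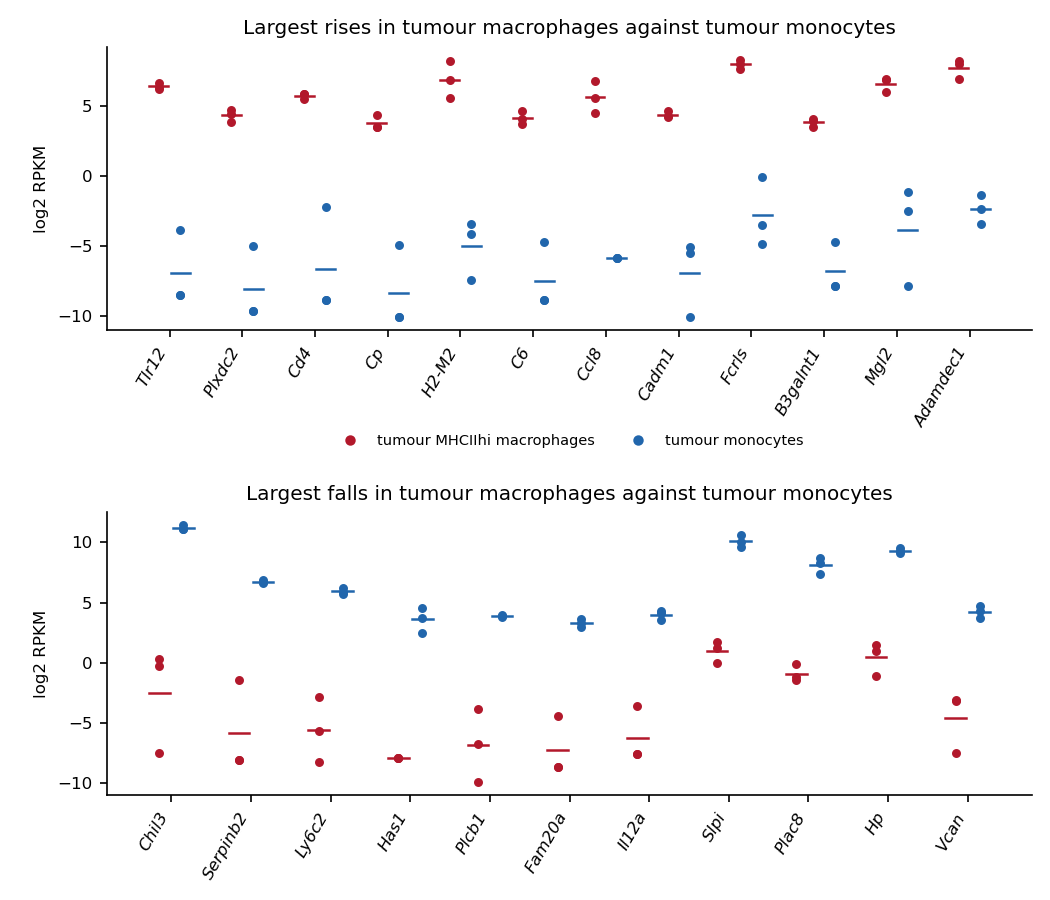
Levels in log2 RPKM of the 12 genes with the largest rise (upper panel) and 11 of those with the largest fall (lower panel), with each macrophage library in red, each monocyte library in blue and a line at each group mean. The genes were chosen among those whose groups do not overlap, and the lowest points of each panel are libraries without a read, drawn at the deposited prior.

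The genes behind the sorting antibodies followed the gates and are given as a description. Adgre1, which encodes F4/80, was at 345, 393 and 470 RPKM in macrophages and at 108, 65.1 and 93.3 RPKM in monocytes. Ly6c2 was at 0.136, 0.0197 and 0 RPKM against 72.1, 53.6 and 58.1 RPKM. Itgam, which encodes CD11b, was at 70.3, 107 and 101 RPKM against 243, 226 and 245 RPKM, so macrophages held less of it although both gates were CD11b+. The MHC class II chain H2-Eb1 was at 7558, 5084 and 3438 RPKM against 44.5, 75.0 and 97.7 RPKM, and monocytes gated as MHCII- thus still held its mRNA.

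Beyond the chains used in the sort, the machinery that loads class II molecules was also higher. Of 11 genes of the MHC class II pathway, 10 were called higher and none lower, with a median log2 difference of 3.90 against 0 over all genes tested, and the pathway's expression goes with the gate. Ciita, the master transactivator of class II genes, was at 33.5, 28.7 and 33.5 RPKM in macrophages and at 1.56, 1.79 and 3.47 RPKM in monocytes. It was 3.90 ± 0.36 higher on the log2 scale (adjusted p = 4.89e-08, limma), with groups well apart. Cd74, the invariant chain that guards the peptide groove, was at 19473, 13662 and 7297 RPKM against 486, 608 and 711 RPKM.

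Macrophage marker genes rose together, and monocyte markers fell together. Of 20 macrophage markers 16 were higher and none lower (median 4.52), and of 15 monocyte markers 14 were lower and none higher (median -5.44). Among 17 resident-type macrophage genes, 4 of them microglia-type, 13 were higher and none lower (median 4.32). How long the cells live was not tested. Some genes of tissue macrophages had few reads in tumour macrophages, with 0, 2 and 0 for Lyve1, 47, 18 and 36 for Timd4 and 40, 103 and 33 for Cd163. C1qa, a chain of the complement initiator C1q, was at 1797, 1194 and 1172 RPKM in macrophages and at 7.42, 6.68 and 5.95 RPKM in monocytes. Its log2 difference was 7.67 ± 0.32 (adjusted p = 9.77e-13, limma), and C1qb and C1qc rose by 6.91 and 7.41. Macrophage levels of C1qa were over 1000 RPKM in all 3 pools.

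Mrc1, the mannose receptor, was at 116, 155 and 173 RPKM against 1.35, 2.5 and 9.66 RPKM. Cx3cr1, the fractalkine receptor of gut macrophages, was at 223, 273 and 343 RPKM against 7.1, 16.6 and 16.1 RPKM, a log2 difference of 4.48 ± 0.62 (adjusted p = 1.05e-05, limma). Ccr2, the receptor by which monocytes leave the marrow, went the other way, at 6.31, 7.62 and 11.1 RPKM in macrophages and 85.7, 70.0 and 121 RPKM in monocytes. It fell by 3.47 ± 0.36 on the log2 scale (adjusted p = 2.55e-07, limma). Each of these pairs of groups was fully apart.

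The rise of C1q did not extend to the complement list as a whole, which does not hold C6, given above among the largest rises. Of 22 complement genes 6 were higher and 4 lower (median 0.19), and 2 were lower with library sizes as the summed reads. At 4 of 22, the falls were a share near the 18.5% of all genes. By role, 3 of 6 initiation genes were higher, 1 of 4 other components was lower, and regulators and receptors were divided.

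Among genes for engulfing dead cells, several proteins that bridge a dead cell to its eater were higher in macrophages. Of 24 efferocytosis genes 12 were higher and 3 lower (median 0.95). Among the 6 bridging proteins 5 were higher, 3 of which are the C1q chains described above, and none lower, and among the 12 receptors 5 were higher and 3 lower. Gas6, the bridging ligand of the TAM receptors, was at 90.0, 65.1 and 94.2 RPKM in macrophages and at 3.4, 2.35 and 0.867 RPKM in monocytes. Axl, a TAM receptor, was at 233, 267 and 268 RPKM against 2.11, 5.57 and 6.51 RPKM. Mertk, its relative, was at 63.0, 62.4 and 56.9 RPKM against 1.42, 2.0 and 2.81 RPKM. Axl rose by 5.91 ± 0.38 (adjusted p = 4.27e-10), Mertk by 4.92 ± 0.43 (adjusted p = 2.12e-08) and Gas6 by 5.43 ± 0.66 (adjusted p = 1.78e-06) on the log2 scale by limma, and the groups were apart for each of these 3 genes. Pros1, the other TAM ligand, was not called, at a log2 difference of 0.04 ± 0.92. Mfge8, which bridges phosphatidylserine to integrins, was at 56.0, 90.2 and 44.2 RPKM against 5.21, 8.99 and 6.87 RPKM. Lrp1, another engulfment receptor, was lower in macrophages by 1.14 ± 0.28 (adjusted p = 0.0031, limma).

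Lysosomal genes were higher in number but by modest amounts. Of 68 lysosome genes 42 were higher and 4 lower, with a median of 0.82, and the 4 falls became 1 without monocyte pool I or with library sizes as the summed reads and 7 after median centring. Cathepsins, the lysosomal proteases, were higher for 11 of 13 and lower for 1, and glycosidases, which strip sugars, were higher for 10 of 13 with none lower. The proton pump that acidifies the lysosome did not move as a unit, with 5 of 16 subunits higher and 2 lower. Ctsf, a cathepsin, was at 33.8, 41.4 and 44.6 RPKM in macrophages and at 0.984, 1.19 and 0.669 RPKM in monocytes. Its log2 difference was 5.43 ± 1.51 (adjusted p = 0.00886, limma), with a wide error taken from the spread of all 8 groups. Cd63, a lysosomal membrane tetraspanin, was at 475, 288 and 323 RPKM against 13.4, 22.4 and 22.9 RPKM. The groups did not overlap for either gene.

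The promoters of lysosomal genes are known for the E-box-type sequence read by the MiT/TFE transcription factors, and its core letters were looked up in RefSeq promoters (build GRCm38.p6). The motif CACGTG, which is its own reverse complement, stood in the 250 bases before the start of 15 of the 55 lysosome genes with a matched promoter (27.3%), and of 1854 of all 27025 genes (6.86%). Among the matched members it stood in 12 of 34 called higher, 1 of 3 called lower and 2 of 18 not called. These letters are a description of the window and not a bound site. Below are the 61 bases around the match for Ctsf at chr19:4855059-4855119 (+ strand) and for the heparan sulphate degrading enzymes Naglu at chr11:101069994-101070054 (+ strand) and Sgsh at chr11:119355511-119355571 (- strand), shown as examples of rises in this list, with the motif in capitals.
Ctsf: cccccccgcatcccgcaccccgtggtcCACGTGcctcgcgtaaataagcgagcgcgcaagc
Naglu: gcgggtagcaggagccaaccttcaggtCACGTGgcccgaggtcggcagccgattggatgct
Sgsh: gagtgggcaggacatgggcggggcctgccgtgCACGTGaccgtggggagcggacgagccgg

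Naglu was at 35.7, 42.4 and 46.8 RPKM in macrophages and at 12.2, 6.55 and 6.35 RPKM in monocytes, a log2 difference of 2.37 ± 0.21 (adjusted p = 4.08e-08, limma). Sgsh was at 6.74, 9.79 and 8.62 RPKM against 1.35, 0.932 and 1.84 RPKM, a log2 difference of 2.65 ± 0.72 (adjusted p = 0.00771, limma). Both were higher in every macrophage library.

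Lipid carrier and iron exporter genes were higher in macrophages, while a haem-degrading enzyme was lower. Of 24 genes of lipid-associated macrophages 13 were higher and 3 lower (median 1.53). Apoe, the lipid carrier apolipoprotein E, was at 20059, 12081 and 8844 RPKM in macrophages and at 623, 499 and 527 RPKM in monocytes, a log2 difference of 4.56 ± 0.35 (adjusted p = 4.27e-09, limma). Of 20 iron and haem genes 7 were higher and 5 lower (median 0.81). Slc40a1, the iron exporter ferroportin, was at 20.2, 28.5 and 33.2 RPKM against 0.12, 0.221 and 0.439 RPKM, a log2 difference of 6.88 ± 0.38 (adjusted p = 5.1e-11, limma). Hmox1, the haem-degrading enzyme, was at 458, 710 and 230 RPKM against 1229, 1196 and 1729 RPKM. It fell by 1.70 ± 0.34 on the log2 scale (adjusted p = 0.000686, limma), and the groups did not overlap.

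Chemokine genes moved in both directions. Of 25 chemokines 9 were higher and 5 lower (median 1.02), and the share of falls was near the 18.5% of all genes. The neutrophil attractants Cxcl2 and Cxcl3 were among the falls. Cxcl3 was at 44.9, 62.4 and 12.4 RPKM in macrophages and at 1406, 1283 and 944 RPKM in monocytes, a log2 difference of -5.19 ± 0.48 (adjusted p = 5.63e-08, limma). Cxcl2 was at 896, 603 and 274 RPKM against 3855, 2976 and 2272 RPKM. Among the rises, Ccl12, a monocyte attractant, was at 37.2, 20.9 and 62.1 RPKM against 1.88, 0 and 0.0884 RPKM. Cxcl16, a membrane chemokine and scavenger receptor, was at 484, 413 and 406 RPKM against 112, 124 and 112 RPKM, a log2 difference of 1.91 ± 0.17 (adjusted p = 3.11e-08, limma). All 4 pairs of groups were apart.

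Of 23 chemoattractant receptors 7 were higher and 7 lower (median -0.49). Of 24 adhesion genes 4 were higher, a share near the 13.6% of all genes, and 9 were lower (median -0.47). Ltb4r1, a receptor for leukotriene B4, was at 0.608, 1.14 and 0.253 RPKM in macrophages and at 218, 158 and 190 RPKM in monocytes, a log2 difference of -8.38 ± 0.37 (adjusted p = 1.27e-12, limma). Itgb7, the beta chain of the gut-homing integrin, was at 0.282, 0.959 and 1.02 RPKM against 160, 137 and 126 RPKM. Vcam1, a ligand of integrins, went the other way at 464, 413 and 437 RPKM against 2.72, 2.16 and 1.3 RPKM, a log2 difference of 7.80 ± 0.31 (adjusted p = 5.74e-13, limma). Cd44, the hyaluronan receptor, was at 107, 116 and 63.7 RPKM against 786, 650 and 635 RPKM. The receptors that were lower were thus near absent for Ltb4r1 and Itgb7 and still plain for Cd44.

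Genes of acute inflammation were mostly lower in tumour macrophages. Of 31 inflammatory cytokines and mediators 18 were lower and 4 higher (median -2.13), and of 24 S100 and granule genes 16 were lower and 1 higher (median -4.54). Il6, the gene of interleukin 6, was at 8.4, 4.04 and 1.53 RPKM in macrophages and at 96.7, 110 and 111 RPKM in monocytes, a log2 difference of -4.83 ± 0.46 (adjusted p = 8.21e-08, limma). Il23a, the p19 chain of interleukin 23, was at 4.84, 2.0 and 0.0572 RPKM against 112, 157 and 66.5 RPKM. Its partner chain Il12b went the other way in reads, with 399, 567 and 343 in macrophages and 31, 49 and 17 in monocytes. The arginine-consuming enzymes of both textbook macrophage states were lower together. Arg1 was at 92.4, 135 and 64.5 RPKM against 1408, 1377 and 1697 RPKM, and Nos2 was at 2.0, 1.18 and 1.86 RPKM against 76.2, 26.0 and 60.6 RPKM. Arg1 fell by 4.0 ± 0.57 (adjusted p = 1.56e-05) and Nos2 by 4.91 ± 0.87 (adjusted p = 0.000169) on the log2 scale by limma. S100a4, a calcium-binding protein of motile cells, was at 0.264, 0.131 and 0.836 RPKM against 58.6, 46.5 and 38.2 RPKM. Neutrophil markers, 10 of 15 of which were called lower in macrophages and none higher, include granule genes of this kind, and their part in the falls was not tested.

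Some mediators went the other way. Ptgs1, the constitutive cyclooxygenase, was at 147, 144 and 138 RPKM in macrophages and at 1.05, 0.722 and 1.19 RPKM in monocytes, a log2 difference of 7.21 ± 0.21 (adjusted p = 3.85e-15, limma). Hpgds, the synthase that turns the product of cyclooxygenases into prostaglandin D2, was at 53.5, 60.1 and 64.8 RPKM against 0.235, 0.219 and 0.0455 RPKM, a log2 difference of 8.80 ± 0.39 (adjusted p = 1.72e-12, limma). Csf1, the macrophage growth factor, was at 15.1, 11.9 and 5.35 RPKM against 0.452, 1.49 and 1.21 RPKM. The groups did not overlap for any of these 3 genes.

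In interleukin 10 and TGF-beta signalling 3 of 19 genes were higher and 7 lower (median -0.24, and 0.03 with library sizes as the summed reads). The share of rises was near the 13.6% of all genes. The TGF-beta receptor chains were among the rises. Tgfbr1, the type I TGF-beta receptor, was at 65.2, 73.6 and 83.3 RPKM in macrophages and at 8.11, 10.1 and 8.75 RPKM in monocytes, a log2 difference of 3.04 ± 0.17 (adjusted p = 5.99e-11, limma). Tgfbr2, the type II chain, was at 63.2, 73.9 and 83.0 RPKM against 12, 13.1 and 9.5 RPKM.

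Matrix and protease genes moved in both directions. Of 28 matrix and protease genes 8 were higher and 13 lower, and the median of -0.18 became 0.10 with library sizes as the summed reads. Among 12 metalloproteinases 5 were higher and 3 lower, whereas among 8 matrix components 1 was higher and 5 lower. Mmp2, a gelatinase, was at 106, 118 and 109 RPKM in macrophages and at 1.06, 0.352 and 0.435 RPKM in monocytes, a log2 difference of 7.67 ± 0.49 (adjusted p = 3.13e-10, limma). Mmp13, a collagenase, was at 334, 413 and 339 RPKM against 9.8, 5.73 and 11 RPKM. Mmp9, the other gelatinase, was at 135, 187 and 101 RPKM against 3.34, 9.32 and 9.71 RPKM. Of 5 protease inhibitors 1 was higher and 3 lower. The metalloproteinase inhibitor Timp1 went down, at 1.49, 0.493 and 0.0875 RPKM against 55.4, 41.4 and 54.5 RPKM. Its relative Timp2 went up, with 2065, 2908 and 1066 reads in macrophages and 89, 94 and 82 reads in monocytes. The neutrophil-type collagenase Mmp8 was at 1.31, 4.18 and 1.66 RPKM against 154, 68.6 and 99.0 RPKM. Thbs1, the matrix glycoprotein thrombospondin 1, was at 421, 407 and 263 RPKM against 6375, 5301 and 5454 RPKM, a log2 difference of -4.0 ± 0.42 (adjusted p = 2.67e-07, limma). Fn1, fibronectin, fell by 4.07 ± 0.45 on the log2 scale (adjusted p = 6.34e-07, limma). Fibroblast markers summed to at most 1.77 RPKM in any of the 6 libraries.

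Among 22 growth and angiogenic factors 9 were higher and 7 lower (median 0.76). Igf1, insulin-like growth factor 1, was at 11, 11.9 and 13.1 RPKM in macrophages and at 0.0682, 0.0938 and 0.00869 RPKM in monocytes, a log2 difference of 8.29 ± 0.85 (adjusted p = 2.24e-07, limma). Areg, the EGF receptor ligand amphiregulin, was at 7.79, 2.02 and 2.02 RPKM against 61.2, 46.7 and 31.0 RPKM. It fell by 3.81 ± 0.55 on the log2 scale (adjusted p = 1.52e-05, limma), so growth factor genes were found on both sides.

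Sensors of microbes were divided as well, with 6 of 23 higher and 9 lower (median -0.31). Tlr1, which senses lipopeptides with Tlr2, was at 47.8, 47.9 and 57.4 RPKM in macrophages and at 7.69, 6.31 and 10.0 RPKM in monocytes. Tlr4, the receptor of bacterial lipopolysaccharide, was at 7.2, 10.1 and 14.8 RPKM against 58.2, 45.5 and 45.3 RPKM. Cd14, its co-receptor, was at 1940, 1534 and 1096 RPKM against 7952, 5992 and 6617 RPKM. Tlr4 fell by 2.27 ± 0.22 (adjusted p = 9.65e-08) and Cd14 by 2.20 ± 0.27 (adjusted p = 1.78e-06) on the log2 scale by limma. Of 29 scavenger and lectin receptors 10 were higher and 7 lower (median 0.61). Clec4e, a lectin that senses mycobacterial glycolipid, was at 27.5, 26.7 and 12.8 RPKM against 828, 711 and 640 RPKM, a log2 difference of -5.10 ± 0.22 (adjusted p = 1.24e-12, limma).

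Of 45 interferon-stimulated genes 20 were lower, 4 were higher and 21 were not called (median -0.83). These genes are known for the interferon-stimulated response element, and its core, GAAA followed by any 2 bases and GAAA again on either strand, stood in the 250 bases before the start of 20 of the 36 members with a matched RefSeq promoter (55.6%), against 936 of all 27025 genes (3.46%). It was found in 2 of 3 matched members called higher, 7 of 17 called lower and 11 of 16 not called. The windows of 61 bases below show it, in capitals, in a gene that fell and in a pair that rose, for Oas3 at chr5:120777699-120777759 (- strand), Bst2 at chr8:71537567-71537627 (- strand) and Gbp7 at chr3:142530258-142530318 (+ strand). In Gbp7 the match is on the opposite strand and is printed as its reverse complement. In Bst2 a second match overlaps the first, and its remaining bases are left in lower case.
Oas3: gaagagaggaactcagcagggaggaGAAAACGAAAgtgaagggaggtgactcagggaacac
Bst2: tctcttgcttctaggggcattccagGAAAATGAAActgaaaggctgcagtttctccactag
Gbp7: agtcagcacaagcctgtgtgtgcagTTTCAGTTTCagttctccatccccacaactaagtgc

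Oas3, an antiviral enzyme that makes the activator of RNase L, was at 1.54, 0.84 and 0.226 RPKM in macrophages and at 27.0, 22.1 and 19.5 RPKM in monocytes, a log2 difference of -5.09 ± 0.69 (adjusted p = 7.17e-06, limma). Irf7, a regulator of interferon genes, was at 12, 8.54 and 9.32 RPKM against 60.6, 52.9 and 56.7 RPKM. Slfn4, a myeloid Schlafen gene, fell by 6.88 ± 0.46 on the log2 scale (adjusted p = 7.2e-10, limma). The exceptions were higher in every macrophage library. Bst2, which tethers budding virus, was at 60.1, 34.3 and 53.9 RPKM against 21.6, 16.9 and 10.9 RPKM, a log2 difference of 1.60 ± 0.31 (adjusted p = 0.000383, limma). Gbp7, an interferon-induced GTPase, was at 45.8, 36.6 and 45.8 RPKM against 19.9, 10.6 and 14.4 RPKM.

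Among 45 transcription factors of macrophages and monocytes 9 were higher and 18 lower (median -0.45), and the count of rises was 16 with library sizes as the summed reads and with voom on the recovered reads. Maf, a factor of mature macrophages, was at 9.8, 7.29 and 11.5 RPKM in macrophages and at 1.26, 0.937 and 0.896 RPKM in monocytes, a log2 difference of 3.20 ± 0.41 (adjusted p = 3.31e-06, limma). Bhlhe41, a factor of tissue macrophages, was at 11.4, 8.69 and 12.1 RPKM against 0.0547, 0.0297 and 0.0384 RPKM. Mef2c rose by 2.08 ± 0.44 on the log2 scale (adjusted p = 0.000965, limma) and Irf8, which drives monocyte and dendritic cell fates, by 1.22 ± 0.20 (adjusted p = 5.32e-05, limma). Hif1a, the oxygen-sensing factor, was at 55.8, 63.5 and 72.8 RPKM against 242, 194 and 239 RPKM, and it fell by 1.81 ± 0.14 (adjusted p = 4.29e-09, limma).

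Glycolysis was lower in macrophages as a group, with 17 of 27 genes lower and 1 higher (median -1.26). Pfkp, a subunit of the rate-setting phosphofructokinase, was at 5.69, 6.73 and 3.65 RPKM in macrophages and at 44.3, 51.0 and 58.5 RPKM in monocytes, a log2 difference of -3.29 ± 0.17 (adjusted p = 1.91e-11, limma). Pkm, pyruvate kinase, was at 331, 424 and 294 RPKM against 1433, 1328 and 1673 RPKM. Eno1, enolase, fell by 2.11 ± 0.16 on the log2 scale (adjusted p = 3.32e-09, limma). The exception among the enzymes was Aldoc, an aldolase, at 9.07, 5.65 and 3.76 RPKM against 0.923, 2.04 and 1.35 RPKM.

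Cell cycle genes were higher in macrophages in part. Of 32 S phase genes 14 were higher and 1 lower (median 1.65), and of 45 G2 and M phase genes 15 were higher and 1 lower (median 1.99). Mcm3, a subunit of the replicative helicase, was at 13.4, 21.2 and 25.9 RPKM in macrophages and at 2.7, 1.98 and 3.81 RPKM in monocytes, a log2 difference of 2.83 ± 0.43 (adjusted p = 3.3e-05, limma). Ccnb2, a mitotic cyclin, was at 6.89, 12.4 and 9.25 RPKM against 1.89, 0.763 and 0.306 RPKM. These counts were less firm than the others. The 14 rises of S phase became 9 without macrophage pool V or VII, 8 without monocyte pool I and 8 with the pool as a replicate block, and the 15 of G2 and M phase became 9 with the block, 25 with voom and 26 on the log2(RPKM + 1) scale.

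**Figure D4:**
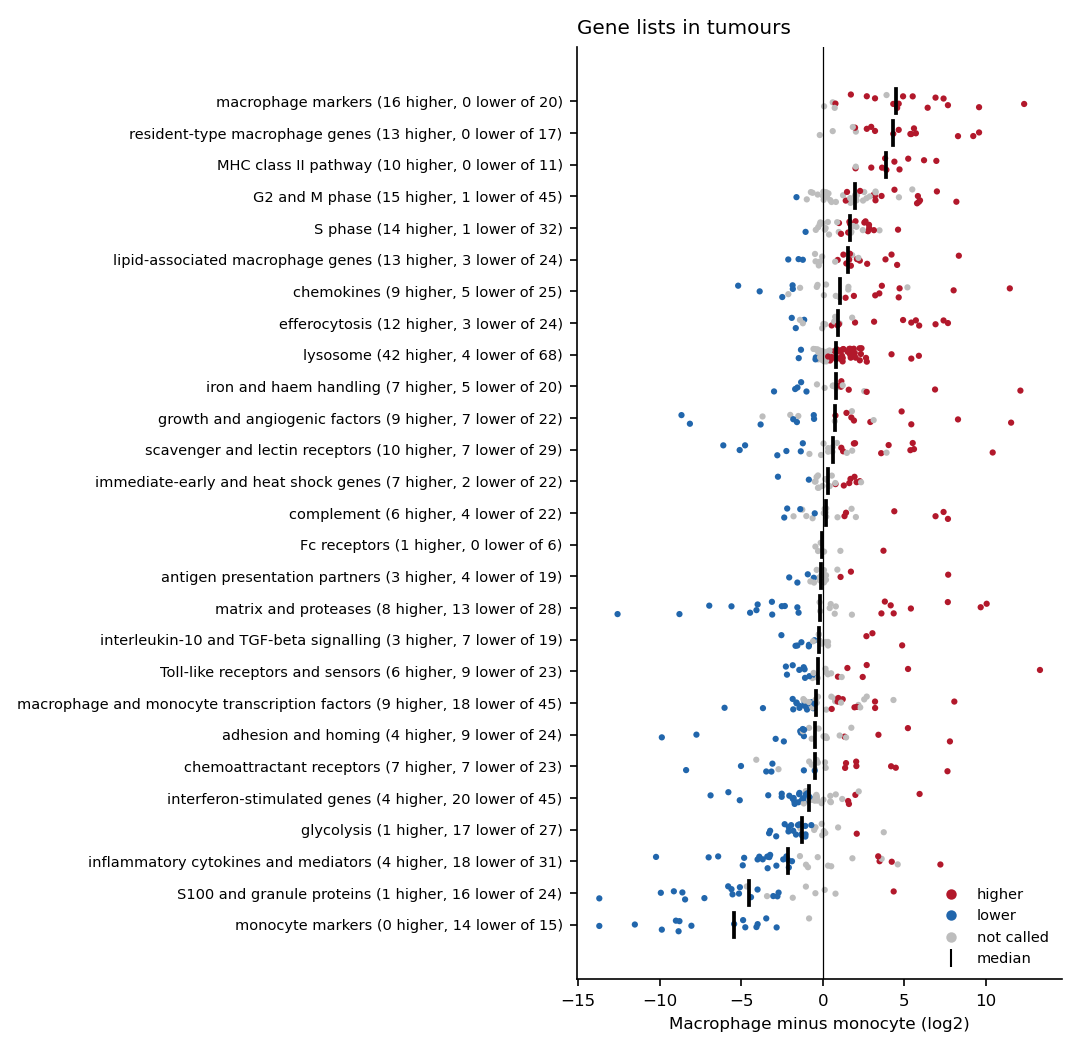
Macrophage minus monocyte difference (log2) of each gene of the lists, with genes called higher in macrophages in red, lower in blue and not called in grey, and the median of each list as a black bar. Macrophage, resident-type and MHC class II genes lie to the right, and monocyte, S100 and granule, inflammatory and glycolysis genes lie mostly to the left.

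The same contrast in the LP shows where the tumour comparison stood apart. LP macrophages against LP monocytes gave 1192 genes higher (9.26% of those tested) and 1396 lower (10.8%). Of the 1748 rises in tumours, 765 were also called higher in the LP, 9 were called lower and 974 were not called. Of the 2383 falls, 938 were also called lower in the LP, 24 were called higher and 1421 were not called. The difference between tissues was tested directly, as the tumour difference minus the LP difference. It was higher for 212 genes (1.65%) and lower for 530 (4.12%), and rises were 28.6% of these calls with the deposited scaling, 54.5% with library sizes as the summed reads, 40.9% on the log2(RPKM + 1) scale and 18.8% after median centring. The LP and tumour animals differ in genotype as well as in tissue, and their DSS treatment may have differed too, so these cannot be told apart.

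Of the 530 genes with a lower difference in tumours, 465 were falls in tumours, and 297 of those were not called in the LP. By list, 8 of 31 inflammatory mediators and 8 of 45 interferon-stimulated genes had a lower difference in tumours, and 2 and 1 had a higher one. These lists did not stand alone. The difference was lower for 5 of 24 S100 and granule genes and for 5 of 24 adhesion genes, and higher for 0 and 1. Within the MHC class II pathway, 1 of 11 genes differed, which was Ciita, by 2.87 (adjusted p = 0.00148, limma), while Cd74 differed by 0.36 (adjusted p = 0.883). The rise of C1qa was 7.99 in the LP and 7.67 in tumours and did not pass the test of the difference (adjusted p = 0.834, limma).

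Cp, the ferroxidase, was at 2.77, 2.68 and 4.06 RPKM in LP macrophages and at 0.383, 0.21 and 0.0642 RPKM in LP monocytes, so its log2 difference was 4.17 there and 12.12 in tumours. The difference between tissues was 7.95 (adjusted p = 0.0168, limma). Without monocyte pool I of the tumours, without LP monocyte pool III or with quantile normalization it no longer passed, with adjusted p up to 0.0693. Adamdec1 was at 50.1, 45.3 and 42.4 RPKM in LP macrophages and at 1.1, 1.11 and 1.86 RPKM in LP monocytes. Its difference was 4.93 larger in tumours (adjusted p = 0.00533, limma; adjusted p = 0.201 with voom on the recovered reads).

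For other genes with a higher difference in tumours, the LP contrast alone did not pass the test. Bhlhe41 was at 1.13, 1.22 and 1.84 RPKM in LP macrophages and at 0.852, 0.487 and 0.0365 RPKM in LP monocytes, and its difference was 5.60 larger in tumours (adjusted p = 0.00863, limma). Mfge8 was at 11.5, 8.16 and 7.88 RPKM against 33.1, 7.03 and 11.2 RPKM in the LP, where the groups overlapped, and its difference was 3.75 larger in tumours (adjusted p = 0.0031, limma). Maf had an LP difference of -0.84 (adjusted p = 0.158) and a tumour difference of 3.20, which differed by 4.04 (adjusted p = 0.000196, limma).

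Hpgds and Mmp2 were already higher in LP macrophages. Hpgds was at 72.5, 68.3 and 69.9 RPKM in LP macrophages and at 2.55, 3.0 and 3.14 RPKM in LP monocytes. Mmp2 was at 33.4, 26.0 and 28.2 RPKM against 2.04, 1.21 and 2.33 RPKM. The difference was 4.2 larger in tumours for Hpgds (adjusted p = 0.000101, limma) and 3.65 larger for Mmp2 (adjusted p = 0.00249, limma).

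In the other direction, the macrophage minus monocyte difference was lower in tumours for several genes that LP macrophages expressed and tumour macrophages scarcely did. Sphk1, which makes the lipid mediator sphingosine 1-phosphate, was at 21.5, 19.9 and 23.1 RPKM in LP macrophages and at 9.12, 13.2 and 12.3 RPKM in LP monocytes. In tumours it was at 1.06, 0.698 and 0.0163 RPKM in macrophages and at 12.7, 15.2 and 18.0 RPKM in monocytes. The order of the populations was thus opposite in the 2 tissues, and the difference of -6.96 passed the test (adjusted p = 0.00206, limma), although the LP contrast alone did not (adjusted p = 0.538).

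Retnla, a secreted protein of alternatively activated macrophages, had no read in any of the 6 tumour libraries, whereas LP macrophages held 11.7, 11.6 and 15.3 RPKM and LP monocytes no read. Serpinb2 was at 4.92, 3.49 and 3.44 RPKM in LP macrophages and Has1 at 5.81, 2.86 and 3.53 RPKM, both near or at 0 in tumour macrophages. F5, coagulation factor V, had no read in tumour macrophages and was at 10.7, 6.22 and 11.6 RPKM in tumour monocytes. In the LP it was at 0.285, 0.187 and 0.143 RPKM in macrophages and at 12.6, 9.45 and 8.95 RPKM in monocytes, so macrophages were low for it in both tissues.

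**Figure D5:**
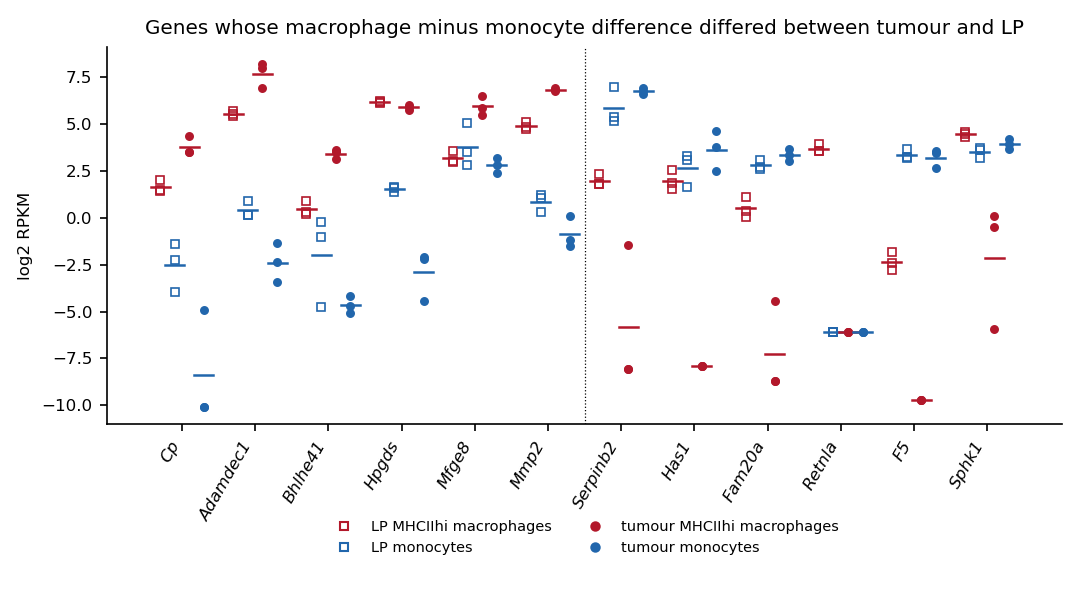
Levels in log2 RPKM of the 12 genes with the largest change of the macrophage minus monocyte difference between tumours (circles) and LP (squares), with macrophages in red, monocytes in blue and a line at each group mean. The genes were chosen among those that passed the test of this difference. Left of the dotted line the difference is higher in tumours and right of it lower, and Sphk1 shows the opposite order of the populations in the 2 tissues.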

How the data were processed

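cDNA libraries had been made with a modified SMARTSeq v2 protocol from sorted cells. Per the labels and the submitters' processing notes, reads were aligned to GRCm38/mm10 with STAR 2.3, counted with featureCounts 1.5 and normalized with edgeR, and the authors deposited log2 RPKM per gene. The deposited log2 values came back to whole reads after removal of a prior of 0.25 reads, for 100.0% of 415224 values within 0.001 reads, and the depths are sums of these. Differences were tested with limma 3.58.1 (R 4.3.3; linear model with a mean per group over all 24 libraries, empirical Bayes with trend) on the deposited log2 RPKM, without the pool as a block. Genes needed a mean of at least 1 RPKM in at least 1 group, and p-values were adjusted by Benjamini-Hochberg within each contrast over 12878 genes at 0.05. The scripts were tested on simulated data. The members and gene lists were chosen with earlier results of these data known. Named genes were the 12 largest rises and falls with a mean of at least 10 RPKM in the higher group and groups apart, up to 6 called members of each list in each direction, the 6 largest differences between tissues in each direction, and the sorting genes; some items are not reported here. Replicate libraries are pools of mice from independent experiments. The labels give the number as the donor, and the numbers I and V occur in both populations, so they were treated as shared pools; deviations from the group means correlated at -0.013 for pool I and 0.033 for pool V. Alternatives were other pseudocounts, filters, scalings, libraries fitted, weights, voom on the recovered reads, the replicate block and leaving out each library. Library sizes as the summed reads were added after the data were seen. The prior count affects the size of changes of genes near 0 reads.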

Additional observations from a re-analysis of the deposited data

Results flagged for a closer look

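For 14 genes named above for the largest changes in tumours or between tissues, the macrophage minus monocyte difference differed between tumours and LP. The test was the direct one (limma, adjusted p under 0.05), and the values are the tumour difference minus the LP difference on the log2 scale. All but Ly6c2 and Slpi were chosen among the genes that passed this same test, so their passing is no separate support. Ciita and Maf, given above as members of lists, also passed this test and are not among the 14. Among the 14, the difference was higher in tumours by 7.95 for Cp, 5.60 for Bhlhe41, 4.93 for Adamdec1, 4.2 for Hpgds, 3.75 for Mfge8 and 3.65 for Mmp2. It was lower in tumours for Has1 (-10.79), Retnla (-9.75), Serpinb2 (-8.72), Fam20a (-8.30), F5 (-7.21), Sphk1 (-6.96), Ly6c2 (-4.17) and Slpi (-3.53). The values for Has1, Retnla and F5 rest on groups without a read and depend on the prior count. Those for Fam20a, Serpinb2 and Cp rest on groups with 2 libraries of 3 without a read and depend on it too, ranging over the alternatives from -9.71 to -1.74, from -10.92 to -3.04 and from 2.09 to 9.67. The difference for F5 no longer passed on the log2(RPKM + 1) and log2(RPKM + 0.1) scales, where its adjusted p was up to 0.861. Ly6c2 was used in the sort, so its value is a description.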

How the results depend on the processing

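All 250 named genes called in tumours kept their direction under the 18 or 19 alternatives that gave each a value, and 199 kept the call under all of these. Rises and falls in tumours numbered 1748 and 2383, and 1579 and 2089 with the pool as a replicate block, which shared 1405 and 1967 genes with them. The block ended the call of 14 named genes, none of which is given with values above, and moved most list counts by less than 1.5 times. Epithelial markers called lower were 6, 3 with the block or without macrophage pool V, 2 without monocyte pool II or V and 1 without macrophage pool VII. Leaving out each library gave 1368 to 1507 rises and 1960 to 2192 falls. The count of rises moved most on the log2(RPKM + 1) scale, to 2631. For the difference between tissues, 212 genes were higher and 530 lower, and 202 and 493 with the replicate block. The higher count was 471 on the log2(RPKM + 1) scale, 334 with only the libraries compared, 482 with array weights, 364 with voom and 420 with library sizes as the summed reads. The lower count was 847 with array weights and 350 with the summed reads. Leaving out each library gave 143 to 242 higher and 393 to 556 lower. The cause was not tested. Depth limits genes under 30 reads in the higher group.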

Other observations

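Costimulatory and stress genes were also examined. Of 19 partners of antigen presentation 3 were higher and 4 lower in tumour macrophages (median -0.10), shares near those of all genes (13.6% and 18.5%). With library sizes as the summed reads 6 were higher and 2 lower (median 0.18), and 2 were lower without macrophage pool VII or monocyte pool I. Cd83, a surface protein of activated antigen-presenting cells, was at 1477, 873 and 1224 RPKM in macrophages and at 350, 354 and 354 RPKM in monocytes, a log2 difference of 1.72 ± 0.25 (adjusted p = 1.82e-05, limma). Cd80, a ligand of CD28, fell by 2.06 ± 0.22 on the log2 scale (adjusted p = 4.45e-07, limma). Of 22 immediate-early and heat shock genes, which also respond to tissue digestion, 7 were higher and 2 lower (median 0.32), and 1 was lower with the pool as a replicate block. Fosb, an immediate-early factor, was at 256, 139 and 148 RPKM against 33.4, 31.4 and 45 RPKM, a log2 difference of 2.27 ± 0.25 (adjusted p = 6.65e-07, limma). Of 6 Fc receptors 1 was called, Fcgrt, the neonatal receptor, which was higher by 3.72 ± 1.35 (adjusted p = 0.0396, limma) and lost the call when single libraries were left out. None of the 4 activating genes and not the inhibitory gene was called in either direction, at differences between -0.45 and 1.08, although voom on the recovered reads and other scalings moved these counts by 1.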
